A study of Arabidopsis thaliana with 12 samples.

Results

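OTP70 (AT4G25270), CRR21 (AT5G55740), PAC (AT2G48120) and AT3G27550 are nuclear genes that were grouped as organelle RNA processing factors and were measured in the Arabidopsis thaliana toc34 mutant and in wild type (WT). Each of these 4 genes had a spot annotated to it alone, so that they make up 4 of the 692 spots with a single gene and 4 of all 3439 spots. The genes were chosen by their difference between toc34 and WT on these same arrays, together with what is known of their roles, so the differences given for them are descriptions and carry no test. Total RNA of each genotype was hybridised to 6 arrays, which the titles number 1 to 6 in both genotypes. Both genotypes are of the ecotype Columbia 0, and toc34 is described in the labels as a mutant with impaired import of proteins across the outer envelope membrane of the chloroplast. The labels used here name no allele, age, tissue or growth condition, and are silent on whether separate plants or cultures stood behind the 6 arrays of each genotype. Any p-value therefore measures the spread between arrays, which may be technical.

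Plastids and mitochondria keep small genomes whose transcripts are cut, spliced, edited and protected by proteins made in the cytosol and imported into the organelle. Pentatricopeptide repeat (PPR) proteins are a large plant family of such factors, each of which binds a particular stretch of organelle RNA. CRR21 is a PPR protein needed to edit the plastid transcript ndhD, which encodes a subunit of the chloroplast NADH dehydrogenase-like (NDH) complex of cyclic electron transport. OTP70 is a PPR protein needed to splice the plastid transcript rpoC1, which encodes a subunit of the plastid RNA polymerase. PAC is PALE CRESS, a plastid protein that is needed for the maturation of plastid RNA and for chloroplast development. The annotation tables used here give AT3G27550 no name or product, so no role is stated for it.

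The arrays differed in brightness and partly resembled each other by number. The deposited intensity, a linear value between 0 and 100 with no stated unit, summed to between 1988 and 3553 per array, lowest on toc34 replicates 5 and 6 and highest on WT replicates 3 and 4. Log2 values were quantile-normalized between arrays before differences were taken, with values of 0 as missing. Over all tested spots 997 of 2768, or 36.0%, had a limma adjusted p under 0.05. Of the leaf genes set as tissue markers, 2 of 7 had a spot of their own, PSAN and PSBW, and both were measured on all 12 arrays. PSBW was lower in toc34 (log2 difference -0.53, limma adjusted p = 0.0379), with deposited means of 49.1 ± 8.78 in WT and 21.0 ± 4.07 in toc34 (SD, n = 6 arrays each), and PSAN had a difference of -0.39 (limma adjusted p = 0.0909). The PSBW call was not firm: it ended with the replicate block (limma adjusted p = 0.0573), with the random block (0.168), with averaging (0.187) and without WT replicate 1, 2, 4 or 6 or toc34 replicate 2, 3 or 4 (0.0588 to 0.0803). On the deposited scale both differences were larger, at -1.23 for PSBW (limma adjusted p = 0.000347) and -0.69 for PSAN (0.0155). With each array centred on its median they were -1.13 (limma adjusted p = 0.000210) and -0.60 (0.00542). With cyclic loess they were -0.69 (limma adjusted p = 0.00364) and -0.26 (0.212). The call of PSAN thus depended on the scale. The part of these leaf genes' shift in the values of the 4 genes was not tested. None of the 5 root markers and none of the 6 flower and seed markers had a spot of their own, so the tissue was not checked further. In RNA from whole samples, fewer cells of a type and less RNA per cell cannot be told apart. No spot was annotated to TOC34 alone, so the mutation itself could not be seen in these values. None was annotated to plastid or mitochondrial genes alone, so the transcripts on which these factors act were not analysed here.

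PAC was the only one of the 4 genes with a higher signal in toc34, at a 3.80-fold higher normalized level, while OTP70, CRR21 and AT3G27550 were 2.87-fold, 2.09-fold and 4.72-fold lower. Differences over 2-fold are common on these arrays. Of all tested spots, 14.1% were over 2-fold lower in toc34 and 13.2% were over 2-fold higher. The values of the genotypes did not overlap for OTP70, CRR21 and PAC and did overlap for AT3G27550. Among the 2337 spots measured on all 12 arrays, 13.1% had every toc34 value below every WT value and 12.6% had every toc34 value above every WT value. Since the genes were picked on this difference, nothing is read from their number against these shares.

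**Figure D1:**
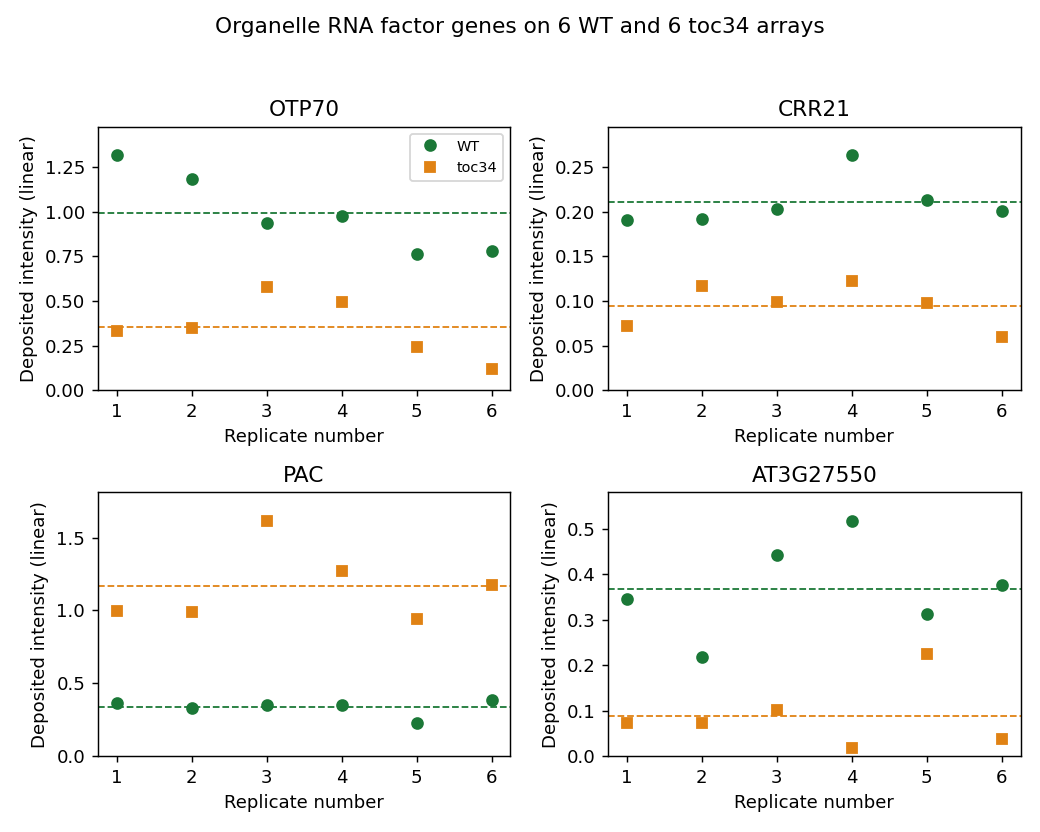
Deposited intensity (linear scale, from 0) of OTP70, CRR21, PAC and AT3G27550 against the replicate number, with WT arrays as green circles, toc34 arrays as orange squares and the mean of each genotype as a dashed line. The lowest PAC value in toc34 is 0.943 and the highest in WT is 0.388, whereas toc34 replicate 5 of AT3G27550, at 0.226, lies above WT replicate 2, at 0.219.

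CRR21, the editing factor for ndhD, had a WT intensity of 0.191, 0.192, 0.203, 0.264, 0.213 and 0.201 on replicates 1 to 6. In toc34 the intensities were 0.0716, 0.117, 0.0989, 0.122, 0.0974 and 0.0602. WT replicate 4 was the highest array and toc34 replicate 6 the lowest, and the lowest WT value was 1.57-fold above the highest toc34 value. The mean was 0.211 ± 0.0272 in WT and 0.0945 ± 0.0245 in toc34 (SD, n = 6 arrays each). After normalization the log2 difference of toc34 minus WT was -1.07 (SE 0.16). CRR21 had the smallest pooled SD within genotypes of the 4 genes, at 0.24 on the log2 scale, which only 10.3% of tested spots matched or undercut. Its SD was 0.12 in WT and 0.32 in toc34, where PAC was steadier, at 0.24. Between arrays of the same number, the WT intensity was 1.64-fold (number 2) to 3.35-fold (number 6) that of toc34. Its difference shrank to -0.80 when an offset of 0.0411, the 10th percentile of all values above 0, was added before the logarithm, which takes it below 2-fold.

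OTP70, the splicing factor for rpoC1, had WT intensities of 1.32, 1.18, 0.936, 0.974, 0.765 and 0.777 on replicates 1 to 6. The toc34 intensities were 0.333, 0.348, 0.578, 0.492, 0.244 and 0.119. WT replicates 1 and 2 were the brightest and toc34 replicates 5 and 6 the dimmest, and the genotypes came closest at WT replicate 5 and toc34 replicate 3, which were 1.32-fold apart. The means were 0.992 ± 0.220 and 0.353 ± 0.165 (SD, n = 6 arrays each), and the normalized log2 difference was -1.52 (SE 0.28). The size of that difference varied with the replicate number. It was -1.74 in numbers 1 and 2, -0.86 in 3 and 4, and -1.96 in 5 and 6, and only in numbers 3 and 4 was it under 2-fold. Its WT level after normalization was higher on replicates 1 and 2, at 0.44 and 0.26, than on the other 4 WT arrays, which lay between -0.46 and -0.28. The toc34 level was lowest on replicate 6, at -2.83, where the other 5 arrays lay between -1.68 and -1.18. Without that array the difference was -1.29.

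PAC had WT intensities of 0.366, 0.328, 0.352, 0.354, 0.228 and 0.388 on replicates 1 to 6. On the toc34 arrays it reached 0.998, 0.991, 1.62, 1.27, 0.943 and 1.18. WT replicate 5 was the dimmest array and toc34 replicate 3 the brightest, and a 2.43-fold gap separated the highest WT value from the lowest toc34 value. The means were 0.336 ± 0.0563 in WT and 1.17 ± 0.253 in toc34 (SD, n = 6 arrays each). The normalized log2 difference was 1.93 (SE 0.17), with values of 1.71, 1.82 and 2.25 in numbers 1 and 2, 3 and 4, and 5 and 6. Each pair of arrays thus gave a difference over 3-fold. Between same-numbered arrays toc34 was 2.73-fold (number 1) to 4.59-fold (number 3) above WT on the deposited scale. The normalized levels in toc34 ran from -0.04 on replicate 4 to 0.68 on replicate 6, and those in WT from -2.11 on replicate 5 to -1.27 on replicate 6.

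AT3G27550 had WT intensities of 0.345, 0.219, 0.443, 0.518, 0.312 and 0.376 on replicates 1 to 6. In toc34 it had 0.0723, 0.0734, 0.102, 0.0177, 0.226 and 0.0389. Replicate 5 stood well above the other toc34 arrays and reached into the WT range, and it was the only toc34 array to do so. The means were 0.369 ± 0.104 and 0.0883 ± 0.0734 (SD, n = 6 arrays each), and the normalized log2 difference was -2.24 (SE 0.51), the largest and the least certain of the 4. The intensities on toc34 replicates 4 and 6 were below the offset of 0.0411, and the highest toc34 value was 12.8-fold the lowest, against 2.37-fold in WT. Same-numbered arrays differed by 1.38-fold (number 5) to 29.3-fold (number 4). With the offset added before the logarithm the difference was -1.60. It was -2.64 without toc34 replicate 5 and -1.81 without toc34 replicate 4.

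**Figure D2:**
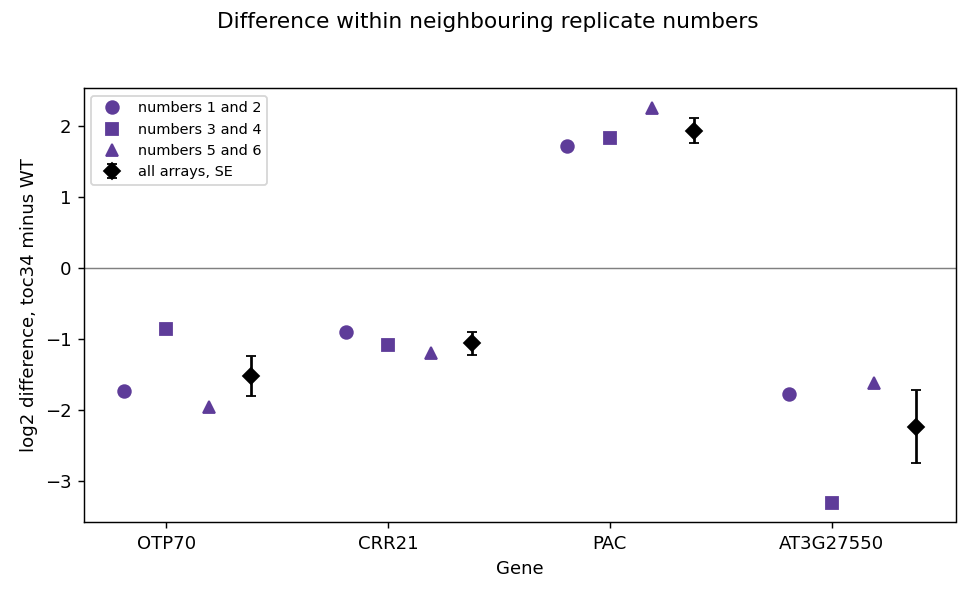
Log2 difference of toc34 minus WT for each gene within replicate numbers 1 and 2 (circles), 3 and 4 (squares) and 5 and 6 (triangles), and over all arrays (black diamonds, bars are the SE). All points of PAC lie above 0 and all points of the other genes below it, with OTP70 ranging from -1.96 to -0.86 and AT3G27550 from -3.30 to -1.63.

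The spread among arrays of a genotype differed between the genes. For OTP70 in WT, arrays with neighbouring numbers (1 and 2, 3 and 4, 5 and 6) lay a median of 0.07 apart on the normalized log2 scale and other WT arrays a median of 0.60 apart. For AT3G27550 in toc34, the medians were 2.44 for neighbouring and 1.54 for other arrays. For CRR21 in toc34 they were 0.65 and 0.32, so that neighbouring numbers were not closer for either of these genes in toc34. The pooled SD within genotypes was 0.24 for CRR21, 0.27 for PAC, 0.50 for OTP70 and 0.96 for AT3G27550, against a median of 0.50 over all tested spots. On toc34 replicate 6, where the summed intensity of 1991 was among the lowest, OTP70 and CRR21 had their lowest value of all 12 arrays and AT3G27550 was lower only on toc34 replicate 4, while the normalized value of PAC was its highest. On the deposited scale PAC was at 1.18 on that array, below 1.62 on toc34 replicate 3. The summed intensity of toc34 replicate 5 was as low, at 1988. There OTP70 was lower only on replicate 6, while AT3G27550 had its highest toc34 value, at 0.226. The part of the brightness of these arrays in these values was not tested.

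The direction for each of the 4 genes was the same on the 4 scales and with the offset. Since the 4 genes were chosen by this difference, the direction was largely fixed by their choice. On the deposited scale the log2 differences were -1.19 for CRR21, -1.63 for OTP70, 1.79 for PAC and -2.43 for AT3G27550. With each array centred on its median they were -1.10, -1.53, 1.89 and -2.33 in the same order, and with cyclic loess they were -1.06, -1.38, 2.04 and -2.29. The median over all spots moved with the scale, at -0.05 after quantile normalization, -0.10 with centring and -0.20 on the deposited scale. This median was not taken for cyclic loess. On each scale for which it was taken, the differences of the 4 genes were larger in size, which their choice by difference would bring about.

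**Figure D3:**
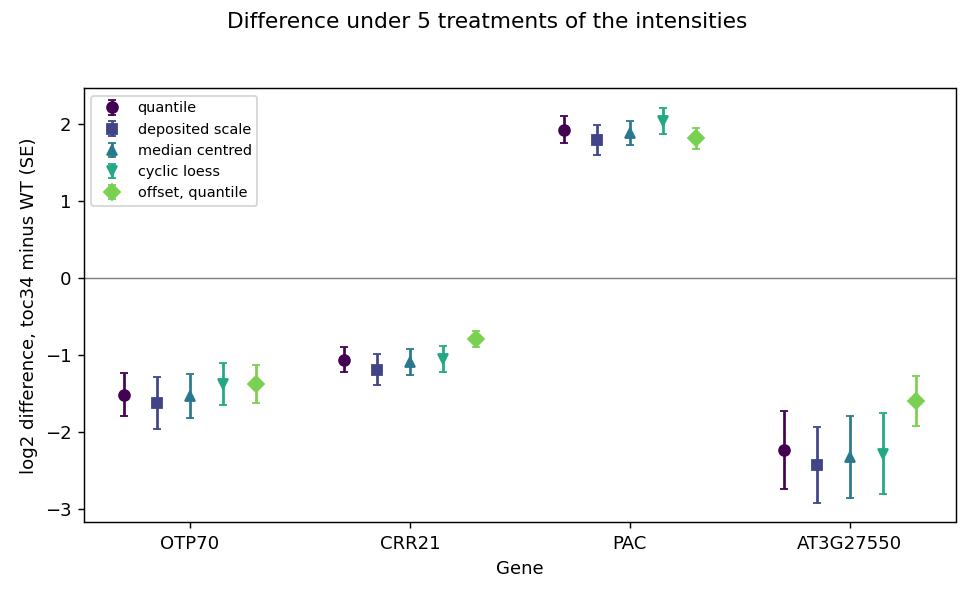
Log2 difference of toc34 minus WT with its SE (bars) for each gene under quantile normalization, without normalization, after centring on array medians, with cyclic loess, and with an offset before quantile normalization. The 5 values of PAC lie between 1.79 and 2.04, and the offset gives the smallest difference for AT3G27550, at -1.60.

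Other genes of organelle RNA metabolism were sparsely covered by spots annotated to them alone. Of all 3439 spots, 870 were shared by several genes and 1877 had no gene listed. A search by family name, with the 4 genes left out, found 0 PPR genes, although 3 genes of the plastid PPR list had spots of their own. PPR genes outside that list may therefore have been missed. Of 120 loci on lists of plastid PPR proteins, RNA-binding proteins of plastids, plastid transcription and the nuclear part of the NDH complex, and of the mTERF family found by name, 6 genes besides the 4 had spots of their own and 3 of these were measured often enough to be tested. Of the 3 tested, 1 fell in toc34 and none rose, with a median difference of -0.08, where 36.0% of all spots were called and the median of all spots was -0.05. At an unadjusted p under 0.05 in limma, NdhS also counted as higher, so that 1 was lower and 1 higher.

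AT5G55580, which carries the synonym mTERF9 and so belongs to a family of organelle gene expression factors, was the gene that fell. Its WT intensities were 0.216, 0.268, 0.449, 0.481, 0.338 and 0.292 on replicates 1 to 6, and its toc34 intensities were 0.161, 0.102, 0.170, 0.204, 0.213 and 0.104. The deposited values of the genotypes barely parted, since the lowest WT value was 1.01-fold the highest toc34 value, and after normalization they overlapped. The means were 0.341 ± 0.105 and 0.159 ± 0.0478 (SD, n = 6 arrays each), with a log2 difference of -0.97 (SE 0.23, limma adjusted p = 0.00523). The call ended with neighbouring numbers averaged (limma adjusted p = 0.0557), with them as a random block (0.0599), with averaging and the replicate block together (0.0760), within numbers 1 and 2 (0.133) and within 5 and 6 (0.245).

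NdhS, a subunit of the NDH complex whose ndhD transcript CRR21 edits, was bright in both genotypes, at 21.3 ± 3.59 in WT and 18.0 ± 4.37 in toc34 (SD, n = 6 arrays each). Its values overlapped, with WT between 17.7 and 26.0 and toc34 between 12.2 and 23.8. The sign of its difference depended on the scale. It was 0.48 after quantile normalization (SE 0.20, limma adjusted p = 0.0790), -0.26 without normalization and -0.17 after centring each array on its median. It passed the threshold with ceiling values set to missing (difference 0.63, limma adjusted p = 0.0289), without toc34 replicate 3 (0.0394) or 4 (0.0422) and within numbers 1 and 2 (0.0320).

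PIFI, a further NDH-related gene, was added once the annotation of the spots had been seen. It had an intensity of 0.250 ± 0.0400 in WT and 0.229 ± 0.0583 in toc34 (SD, n = 6 arrays each), with overlapping values and a log2 difference of -0.05 (SE 0.18, limma adjusted p = 0.870). AT3G22150, a locus on the list of plastid PPR genes, was dim, at 0.0782 ± 0.0301 in WT and 0.0700 ± 0.0491 in toc34. Its difference was -0.08 (SE 0.43, limma adjusted p = 0.904), and its sign turned with single arrays. Spots shared by several genes, at least 1 of them on the lists, numbered 7, of which 6 were tested. Among these 1 fell and 1 rose, or 33.3% called, with differences between -1.19 and 1.40, and no gene is named from them.

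**Figure D4:**
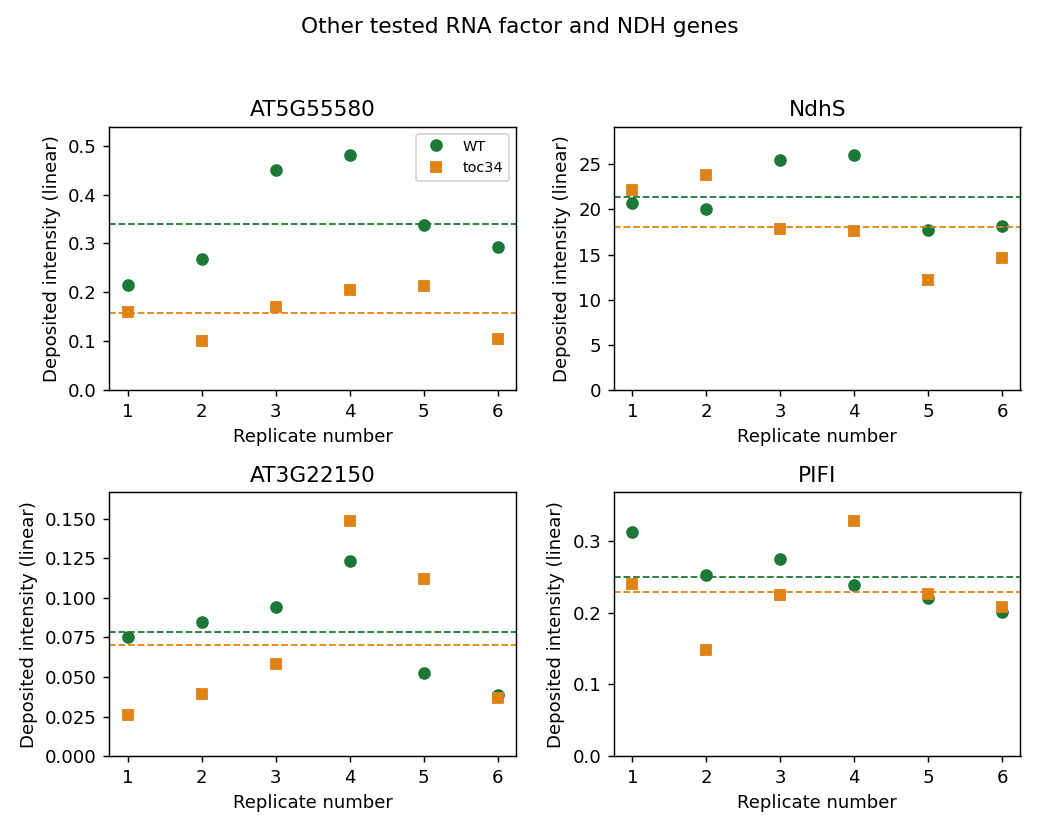
Deposited intensity (linear scale, from 0) of AT5G55580, NdhS, AT3G22150 and PIFI against the replicate number, with WT as green circles, toc34 as orange squares and genotype means as dashed lines. AT5G55580 in toc34 stays at or below 0.213, under the lowest WT value of 0.216, and the genotypes overlap for the other 3 genes.

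**Figure D5:**
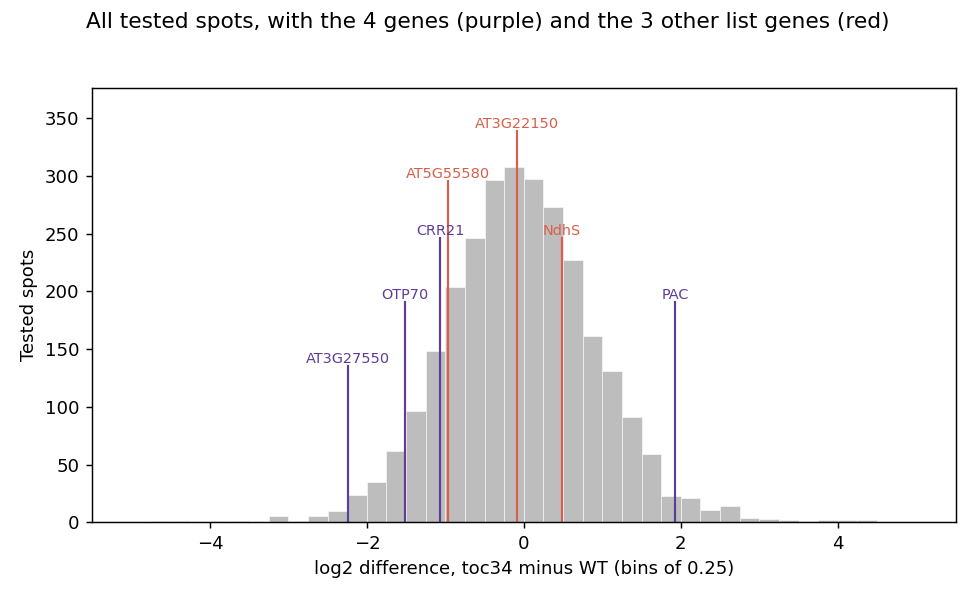
Number of tested spots against the log2 difference of toc34 minus WT in bins of 0.25 (grey bars, 2768 spots), with lines at OTP70 (-1.52), CRR21 (-1.07), PAC (1.93) and AT3G27550 (-2.24) in purple and at AT5G55580 (-0.97), NdhS (0.48) and AT3G22150 (-0.08) in red. AT3G27550 and PAC lie in the tails, where their choice by difference would place them, and CRR21 lies beside AT5G55580.

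For each of the 4 genes, the named genes with the closest profile were found as those with the smallest root mean square distance between centred normalized log2 values over the 12 arrays, among 477 single-gene spots measured on all of them. The profiles hold the genotype difference, so a small distance needs a like difference between genotypes, and arrays with neighbouring numbers share part of their spread. Closest to OTP70 were AT1G74070 (distance 0.31), NTRC, a thioredoxin reductase of the chloroplast (0.38), and PSBY, a small subunit of photosystem II (0.41), where the median distance over all candidates was 1.04. Their log2 differences were -1.51, -1.57 and -1.41. Closest to CRR21 were AT3G54210 (0.21), AT5G26850 (0.24) and AT5G53920 (0.25), with differences of -1.07, -0.80 and -1.23.

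The profile of PAC was most closely matched by AT3G09250 (distance 0.26), AT3G26580 (0.28) and AT5G34870 (0.29), whose log2 differences were 1.76, 2.01 and 1.74. AT3G27550 had the largest distances to its nearest genes, but also the largest spread of its own over the arrays, and such distances grow with that spread. Its nearest genes, AT3G54550, AT1G06510 and AT1G64430, lay at distances of 0.72, 0.73 and 0.79. The median over all candidates was 1.53 for AT3G27550. The differences of the nearest genes spread from -3.02 to -1.43. The lists of 3 nearest genes for the 4 genes shared no gene. Since the profiles hold the genotype difference, the unlike differences of the 4 genes would favour this.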

How the data were processed

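Total RNA of toc34 (6 arrays) and WT (6 arrays) was compared, with genotype and number taken from the sample titles. The deposited values are spot intensities, taken as linear from their range; background subtraction, scaling, dye, scanner and build are not given in the sources used here. The members and lists were chosen with earlier results of these data known. Values of 0 were missing, and a few spots reached the ceiling of 100, 20 times in toc34 and 1 time in WT. Log2 intensities were quantile-normalized, because the medians differed between arrays. Spots with at least 4 measured values per genotype, 2768 of 3439, were fitted with lmFit and eBayes of limma 3.58.1 (R 4.3.3), with no covariate, Benjamini-Hochberg adjustment over these spots and a threshold of 0.05. Printed intensities are the deposited ones, whose precision is limited by the number of arrays.

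Genes were named from the platform annotation of 2016, updated through a RefSeq table of TAIR10.1, in which 690 of the 692 single-gene spots had a locus. No coordinates are given because no build is named for the array, and no sequence table was used. Named were the 4 genes, every tested gene of the lists, and for each of the 4 the 3 named spots with the closest profile. PIFI and CRR41 were added after the annotation had been seen.

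After subtraction of the genotype means, arrays of the same number in toc34 and WT correlated at 0.13 to 0.27 over 2337 spots, all above the 0.1 set for a pairing, against -0.0031 to 0.18 for neighbouring and -0.15 to 0.077 for other numbers. The pairing comes from the values, not the labels, and was run as a replicate block beside the design without it. The procedure was tested on simulated data with noise drawn independently for each array. That test therefore does not cover the likeness of arrays with neighbouring numbers. Alternatives covered scaling, zeros, filters, the ceiling, blocks, averaging and leaving out each array. Fits within pairs of numbers, and averaging with the block, were chosen after seeing the data.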

Additional observations from a re-analysis of the deposited data

Results flagged for a closer look

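For the tested genes described above, the highest and lowest of the 6 arrays of a genotype were compared with the nearest other array, as a ratio of that gap to the whole range, and a ratio past Dixon's 95% critical value was kept. There were 16 such groups. Chance flags about 1 in 20 groups, or 0.8 here, and 2 were found.

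OTP70 in toc34 had a ratio of 0.695, because replicate 6 lay at a normalized log2 level of -2.83 and the other 5 arrays between -1.68 and -1.18. Its deposited intensity there was 0.119, and the cause was not tested. Both ratios hold for quantile-normalized values only. On the deposited log2 scale OTP70 was at -3.07 on toc34 replicate 6 and -2.03 on replicate 5, with the other toc34 arrays up to -0.79. NdhS in WT had a ratio of 0.637, with replicate 5 at 3.93 and the others between 4.06 and 4.14, a narrow range for a gene whose toc34 values ran from 4.08 to 5.16. Without normalization WT replicate 5 of NdhS did not stand apart, at a log2 value of 4.15 beside 4.18 on replicate 6.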

How the results depend on the processing

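The differences of the 4 genes kept their direction under all 26 alternatives, which for genes chosen by that difference is no sign of stability. CRR21 moved by more than its SD with the offset (-0.80), and OTP70 (-0.89) and AT3G27550 (-3.53) did so within numbers 3 and 4 when those arrays were normalized alone (-0.86 and -3.30 with all arrays normalized together). Leaving out single arrays gave -1.15 to -0.98 for CRR21, -1.61 to -1.29 for OTP70, 1.84 to 2.01 for PAC and -2.64 to -1.81 for AT3G27550. The 997 calls over all spots became 390 with neighbouring numbers averaged, 226 with averaging and the block, 625 with the random block (consensus correlation 0.54), 562 within numbers 5 and 6 and 620 at a threshold of 0.01, and stayed between 863 and 996 without single arrays. Increases were 335 and decreases 590 on the deposited scale, against 475 and 522. The replicate block gave 1010 calls and ended, among the genes described, only the call of PSBW (limma adjusted p = 0.0573), which also ended with ceiling values missing (0.224), with averaging and the block (0.207) and within each pair of numbers (0.107 to 0.241). Of the 3 other genes 1 was called, which became 2 with ceiling values missing and within numbers 1 and 2, 0 within numbers 5 and 6 and under averaging, averaging with the block and the random block, and 1 to 2 without single arrays. Within numbers 1 and 2 the called genes were NdhS and AT3G22150, and the call of AT5G55580 ended. The sign turned for NdhS on the deposited scale (-0.26) and with centring (-0.17), for AT3G22150 with the offset (0.014), within numbers 5 and 6 (1.07) and without single arrays (-0.33 to 0.11), and for PIFI with cyclic loess (0.0098), within numbers 5 and 6 (0.30) and without single arrays (-0.10 to 0.056). AT3G22150 passed the threshold within numbers 1 and 2 (difference -1.11, limma adjusted p = 0.0417). The cause was not tested. Dim spots limit AT3G22150 and AT3G27550.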

Other observations

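Several genes of the same lists were too dim to be tested. OTP85, a plastid editing factor of the PPR family, was listed at 0 on 11 of 12 arrays and had 0.00304 on WT replicate 1. AT3G22690, a locus on the plastid PPR list, was listed at 0 on all WT arrays and on 4 toc34 arrays, with 0.0123 on toc34 replicate 4 and 0.0982 on toc34 replicate 6. NdhN of the NDH complex was measured on 3 WT arrays, at up to 0.0211, and on 2 toc34 arrays, at up to 0.0373. CRR41, an NDH-related gene of the chlororespiratory reduction series, was measured on 2 toc34 arrays at up to 0.0271 and listed at 0 on all WT arrays. All of these values but that of AT3G22690 on toc34 replicate 6 were below the offset of 0.0411, and no fold is given against values of 0.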
